A study of Sus scrofa with 8 samples.

Results

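The genes described here make, recycle and spend glutathione against lipid peroxides, form or supply lipids that become peroxides, or oppose them without glutathione (AIFM2). They were 10 genes chosen by symbol (GCLC, GCLM, GSS, GSR, GPX4, MGST1, MGST3, ALOX15, ACSL4 and AIFM2), and all 10 were matched among the 31908 gene models of the deposited count table by the gene name that the authors had attached to each model. They were measured by bulk RNA sequencing of free wall from the right ventricle of 8 pigs (Yorkshire Cross), with 1 library from each animal. In the 4 banded animals, castrated male piglets, a tape was tied around the main pulmonary artery at 4.5 ± 0.6 weeks of age and 6.4 ± 1.3 kg until peak right ventricular pressure reached about 30 to 40 mmHg. The 4 control animals were of like age and weight, were housed for 8 weeks and had no treatment; no sham operation is named and their sex is not stated. How long the band was in place before tissue was taken is not stated. The labels name no transgene and, beyond anaesthesia for surgery, no drug. The comparison asks which of these transcripts differ in a right ventricle that has worked against a raised pressure.

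Ferroptosis is a form of cell death driven by iron-dependent peroxidation of membrane phospholipids. Cells oppose it with glutathione, a tripeptide of glutamate, cysteine and glycine, which the selenoenzyme GPX4 uses to reduce phospholipid hydroperoxides to alcohols. ACSL4 loads membranes with polyunsaturated fatty acids that are easily oxidised, lipoxygenases such as ALOX15 add oxygen to them, and AIFM2 (also called FSP1) regenerates reduced coenzyme Q as a second line of defence that does not need glutathione. The heart oxidises fatty acids in abundant mitochondria, which are a source of reactive oxygen. None of these reactions was measured here, and the values below are transcript levels only.

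Of the 10 genes, 3 were higher in banded right ventricle and none was lower at an adjusted p under 0.05 by edgeR's quasi-likelihood test. GCLM, the modifier subunit of the rate-limiting enzyme of glutathione synthesis, was 2.06-fold higher. MGST3, a microsomal glutathione transferase and peroxidase, was 1.89-fold higher, and the ALOX15 gene model, which also holds exons of ALOX12, was 5.53-fold higher. GPX4, GSS, GSR, ACSL4 and AIFM2 did not pass the test and their groups overlapped. GCLC had a positive and MGST1 a negative log2 fold change that reached an unadjusted p under 0.05 but not the adjusted threshold.

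The background for these counts is the fit over all genes, in which 954 of 13697 genes tested passed, or 6.97%, with 475 higher (3.47%) and 479 lower (3.5%). Scaling by library size alone gave 303 higher and 508 lower. DESeq2 called 1710 of the 13697 genes and limma-voom 1341, the background for counts by those tools below. MGST1, at an unadjusted p of 0.0169 by edgeR's quasi-likelihood test, ranked 1941 among the genes tested. An unadjusted p under 0.05 was therefore common. Its exact share over all genes tested is not given, so the list counts of unadjusted p below are descriptions. The 10 genes all passed the filter on low counts, with at least 53 counts in every library. Groups did not overlap for 4 of the 10 (GCLC, GCLM, MGST3 and ALOX15), against 15.9% of all genes tested. The median log2 fold change was 0.19 over the 10 genes and 0.02 over all genes tested, with 9 of the 10 positive. As the set holds 10 genes, 1 gene more or less moves its share by 10 percentage points, so the counts are a description.

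Depth was 31033679 to 34183338 counts per library, and transcripts of the mitochondrial genome took 30.5% to 43.9% of them. Across genes, the Spearman correlation of a library with the others of its group was 0.9551 to 0.9612 for banded 3, up to 0.9775 among the other banded libraries, and 0.9751 to 0.9859 among controls. Banded 3 therefore stood apart most, and values without it are given where they differ in sign or call. Of 9 cardiomyocyte markers, 6 were matched, and they summed to 45680 to 55420 CPM (library-scaled counts, normalised by TMM) in banded and 31310 to 42090 CPM in control animals. They were led by MYH7, MYL2 and TNNT2, while TNNI3, the adult cardiac troponin I, was at only 6.45 ± 3.74 CPM in banded and 15.3 ± 3.64 CPM in control animals. The 6 did not move together, as 4 had a positive log2 fold change and MYL2 alone was called. RYR2 had 388 ± 116 CPM in banded and 648 ± 122 CPM in control animals (adjusted p 0.0618 by edgeR's quasi-likelihood test). In bulk tissue, fewer cells of a type and less RNA per cell cannot be told apart.

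**Figure D1:**
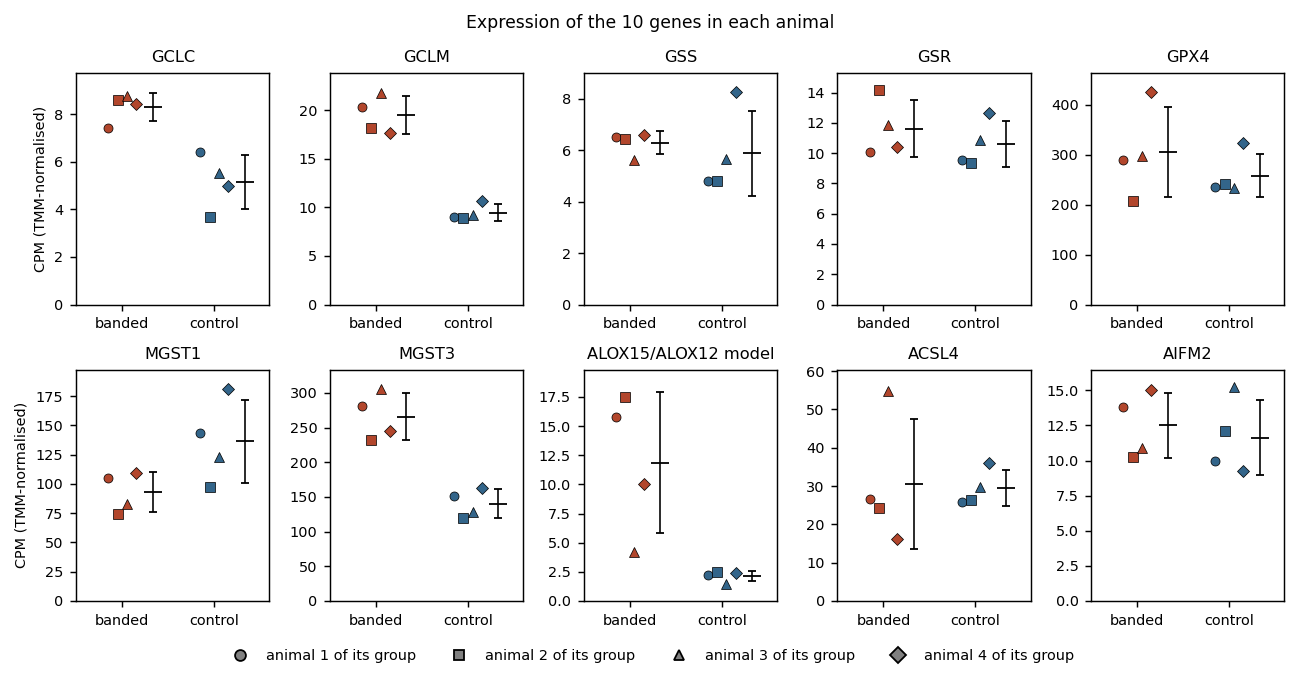
TMM-normalised CPM (vertical axes, from 0) of each of the 10 genes in the 4 banded animals (red, left) and the 4 control animals (blue, right); marker shapes give the animal, and the bars beside them the mean and SD. Banded and control animals do not overlap for GCLC, GCLM, MGST3 and the ALOX15 and ALOX12 model, and banded 3 (triangle) is the lowest banded animal for that model and the highest for ACSL4.

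Glutathione synthesis starts with glutamate-cysteine ligase, which joins glutamate to cysteine. Its modifier subunit GCLM makes the catalytic subunit work better at cellular substrate levels and less sensitive to feedback by glutathione. The GCLM gene (Sscrofa11.1, chr4:123371193-123390135, plus strand) had 20.4, 18.2, 21.8 and 17.6 CPM in banded 1 to 4, against 9.04, 8.90, 9.22 and 10.7 CPM in control 1 to 4. Every banded animal lay above every control, and the spread within each group was narrow, with coefficients of variation of 9.9% in banded and 8.8% in control animals. The means were 19.5 ± 1.94 CPM in banded and 9.46 ± 0.834 CPM in control animals (SD, n = 4 each), a log2 fold change of 1.04 ± 0.14 (SE, 95% interval 0.74 to 1.34) with an adjusted p of 0.00171 by edgeR's quasi-likelihood test. GCLM stayed past the threshold when any 1 of the 8 libraries was left out, with adjusted p-values of 0.00252 to 0.0102.

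The catalytic subunit GCLC (chr7:27209564-27253535, plus strand) carries the active site and can make the dipeptide alone. It had 7.42, 8.59, 8.78 and 8.41 CPM in banded 1 to 4, against 6.40, 3.68, 5.51 and 4.99 CPM in control 1 to 4. The groups did not overlap, but the lowest banded animal was close to the highest control. The means were 8.30 ± 0.605 CPM in banded and 5.14 ± 1.13 CPM in control animals, and the log2 fold change was 0.69 ± 0.20 (SE, 95% interval 0.26 to 1.12). The adjusted p was 0.0591 by edgeR's quasi-likelihood test and 0.0149 by DESeq2, so the call for GCLC depended on the tool.

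GSS, glutathione synthetase, adds glycine in the final step. The gene model (chr17:38312720-38342304, minus strand) had 6.54, 6.43, 5.63 and 6.60 CPM in banded 1 to 4, against 4.81, 4.81, 5.65 and 8.29 CPM in control 1 to 4. The banded values lay inside the control range, whose top was control 4. The log2 fold change was 0.10 ± 0.21 (SE, 95% interval -0.37 to 0.56), with an adjusted p of 0.828 by edgeR's quasi-likelihood test. Of the exon bases of this model, 41.5% lie in the RefSeq span of the neighbouring ACSS2 gene and 50.8% in that of GSS. Exons of the ACSS2 model cover 19.1% of its bases on the opposite strand, which the strand-specific counting keeps apart.

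GSR, glutathione reductase, regenerates glutathione from its oxidised dimer with NADPH. It (chr15:54382567-54433989, plus strand) had 10.1, 14.2, 11.8 and 10.4 CPM in banded 1 to 4, against 9.56, 9.34, 10.8 and 12.6 CPM in control 1 to 4. The groups overlapped over most of their range. The log2 fold change was 0.13 ± 0.17 (SE, 95% interval -0.23 to 0.50), with an adjusted p of 0.679 by edgeR's quasi-likelihood test. The interval for GSR holds levels from 0.850-fold to 1.42-fold.

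GPX4, the selenoprotein that reduces phospholipid hydroperoxides within membranes, had 290, 206, 297 and 425 CPM in banded 1 to 4, against 235, 240.5, 233 and 323 CPM in control 1 to 4. Banded 4 was the highest of the 8 animals and banded 2 the lowest, so the control range fell within the banded one. The means were 305 ± 90.4 CPM in banded and 258 ± 43.4 CPM in control animals. The log2 fold change was 0.24 ± 0.21 (SE, 95% interval -0.22 to 0.70), with an adjusted p of 0.525 by edgeR's quasi-likelihood test. Banded 4 was also the animal with the most erythroid transcripts, a summed 1787 CPM over 5 markers matched of 7, against 131 to 173 CPM in the other banded animals and 75.4 to 322 CPM in control animals. The part of these transcripts in the GPX4 value was not tested. The GPX4 model (chr2:77320464-77323886, minus strand) is longer than the RefSeq gene, whose span holds 43.4% of its exon bases, and a level per length depends on that length.

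The microsomal transferases MGST1 and MGST3 are small membrane proteins that conjugate glutathione and can reduce lipid hydroperoxides, and their log2 fold changes had opposite signs. MGST3 (chr4:85069603-85095004, minus strand) had 281, 232, 305 and 245 CPM in banded 1 to 4, against 152, 119, 128 and 163 CPM in control 1 to 4. All banded animals lay well above all controls. The means were 266 ± 33.6 CPM in banded and 140 ± 20.3 CPM in control animals, a log2 fold change of 0.92 ± 0.15 (SE, 95% interval 0.59 to 1.25) with an adjusted p of 0.00571 by edgeR's quasi-likelihood test. MGST3 passed the threshold without any 1 library, with adjusted p-values of 0.00653 to 0.0291.

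MGST1 (chr5:56259568-56282277, minus strand) had 105, 74.7, 83.0 and 110 CPM in banded 1 to 4, against 144, 97.4, 123 and 181 CPM in control 1 to 4. Only control 2 fell within the banded range. The means were 93.1 ± 17.0 CPM in banded and 136 ± 35.3 CPM in control animals, and the log2 fold change was -0.55 ± 0.20 (SE, 95% interval -0.98 to -0.12). The adjusted p was 0.119 by edgeR's quasi-likelihood test with TMM scaling, and 0.0324 when libraries were scaled by their totals alone, where the log2 fold change was -0.64. As TPM, a level divided by gene length and scaled within each library, MGST1 had 40.8 to 48.0 in banded and 53.5 to 73.3 in control animals, which do not overlap, so whether the groups separate depended on the scaling.

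**Figure D2:**
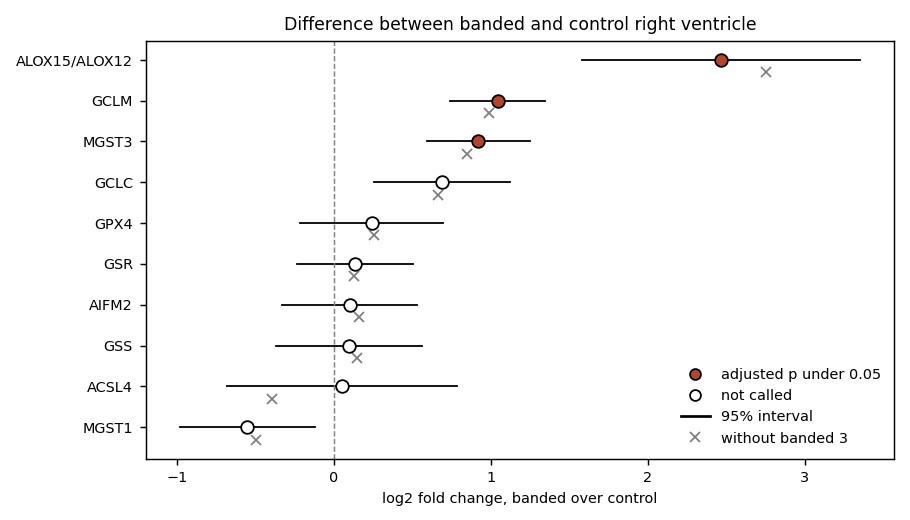
Log2 fold change of banded over control (horizontal axis) for each gene, with its 95% interval as a line; filled circles have an adjusted p under 0.05 and crosses give the value without banded 3. The ALOX15 and ALOX12 model, GCLM and MGST3 lie right of 0 with and without banded 3, MGST1 lies left of it, and the ACSL4 value moves to -0.39 without banded 3.

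ALOX15 encodes a lipoxygenase that can oxygenate fatty acids while they are still part of membrane phospholipids. In humans it is known from eosinophils and airway epithelium, and its relative ALOX12 from platelets. The model counted as ALOX15 (chr12:52286019-52414907, plus strand) has 6745 exon bases, of which 44.7% lie in the RefSeq span of ALOX15, 42.9% in that of ALOX12 and 3.0% in that of an uncharacterised non-coding RNA. Reads of ALOX15 and ALOX12 in this model cannot be separated, and the values are those of the joint model.

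The joint model had 15.8, 17.5, 4.17 and 10.0 CPM in banded 1 to 4, against 2.26, 2.47, 1.49 and 2.38 CPM in control 1 to 4. These stand for 499, 615, 135 and 289 counts in banded 1 to 4, against 77, 85, 53 and 72 counts in control 1 to 4. All banded animals were above all controls, yet they varied 4.19-fold among themselves, against 1.66-fold among controls. The means were 11.9 ± 6.04 CPM in banded and 2.15 ± 0.447 CPM in control animals. The log2 fold change was 2.47 ± 0.40 (SE, 95% interval 1.58 to 3.35), or 2.99-fold to 10.2-fold, with an adjusted p of 0.00678 by edgeR's quasi-likelihood test. Left out 1 at a time, the libraries gave log2 fold changes of 2.22 to 2.75 and adjusted p-values of 0.000157 to 0.0316. The highest of those folds came without banded 3, the lowest of the banded animals.

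Markers of cells that carry lipoxygenases in other species were set beside this. Macrophage and monocyte markers summed to 754, 1066, 688 and 565 CPM in banded 1 to 4, against 351, 560, 474 and 556 CPM in control 1 to 4, over 9 genes. Every banded sum was above every control sum, by a narrow margin for banded 4. Of the 8 of these that were tested, CD14 alone was called (16.5 ± 5.56 CPM in banded and 7.81 ± 2.41 CPM in control animals, log2 fold change 1.08 ± 0.28, adjusted p 0.043 by edgeR's quasi-likelihood test), and all 8 had a positive log2 fold change. DESeq2 called 4 of the 8 and limma-voom 4, against 1710 and 1341 of all 13697 genes tested, and 6 of the 8 had an unadjusted p under 0.05. The CD14 call was lost on leaving out banded 1, 2 or 3 or control 1, 2 or 3, with adjusted p-values up to 0.126, and also with library size alone (0.0624). Their part in the ALOX15 model's value was not tested.

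Of the eosinophil markers, 3 of 7 were matched and none passed the filter. EPX, the eosinophil peroxidase, was at 0 in every library but banded 2 (0.0569 CPM). The eosinophil markers summed to 0.174 to 1.05 CPM in banded and 0.088 to 0.169 CPM in control animals. The highest sum was in banded 3, the banded animal with the least of the ALOX15 model. IL5RA made up most of the banded sums, with 0.284, 0.199, 0.897 and 0.174 CPM in banded 1 to 4. In control 1 to 4 it had 0.088, 0.029, 0 and 0.132 CPM, so every banded animal lay above every control. The part of eosinophils in the ALOX15 model's value was not tested. The 6 platelet markers matched of 7 summed to 34.3 to 48.5 CPM in banded and 38.7 to 48.2 CPM in control animals, most of it from ITGA2B, with PPBP, GP6 and TREML1 under 0.2 CPM on average in either group and GP1BB at 0 in all libraries. The 5 epithelial and mesothelial markers matched of 7 summed to 6.21 to 26.6 CPM in banded and 6.48 to 19.5 CPM in control animals.

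ACSL4 (chrX:89760865-89837678, minus strand) activates arachidonic and adrenic acid for entry into phospholipids. It had 26.6, 24.4, 54.9 and 16.2 CPM in banded 1 to 4, against 25.9, 26.2, 29.8 and 35.9 CPM in control 1 to 4. Banded 3 was the highest of all animals and banded 4 the lowest, with the controls in between. The means were 30.5 ± 16.9 CPM in banded and 29.5 ± 4.65 CPM in control animals, a log2 fold change of 0.05 ± 0.33 (SE, 95% interval -0.68 to 0.78) with an adjusted p of 0.944 by edgeR's quasi-likelihood test. Without banded 3 the log2 fold change was -0.39, with an adjusted p of 0.23. The sign also turned without control 1 (-0.0064) or control 2 (-0.0007), both close to 0. The coefficient of variation was 55.2% in banded and 15.8% in control animals, beside medians over all genes tested of 22.0% in banded and 16.1% in control animals.

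AIFM2 (chr14:73055222-73074653, minus strand), the oxidoreductase that keeps coenzyme Q reduced at the plasma membrane, had 13.8, 10.2, 10.9 and 15.1 CPM in banded 1 to 4, against 9.94, 12.1, 15.2 and 9.25 CPM in control 1 to 4. The groups covered almost the same range. The log2 fold change was 0.10 ± 0.20 (SE, 95% interval -0.33 to 0.53), with an adjusted p of 0.801 by edgeR's quasi-likelihood test. The interval runs from a 0.797-fold to a 1.45-fold level.

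The spread within groups differed between genes. ALOX15 and ACSL4 varied most in banded animals, with coefficients of variation of 50.9% and 55.2%, and GPX4 followed at 29.7%. GCLC and GSS varied less in banded animals, at 7.3% and 7.2%, than in control animals, at 22.0% and 28.0%. These differences in spread rest on 4 animals per group and were not tested.

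Set side by side as TPM, which divides by gene length, the genes covered more than 2 orders of magnitude. The order in either group rests on the lengths of the gene models. Of the exon bases of the GPX4 model 43.4%, and of the GSS model 50.8%, lie in the RefSeq span of that gene. The places of GPX4 and GSS beside their neighbours are therefore not settled. In banded animals MGST3 had a mean of 441 TPM, GPX4 had 229 TPM and MGST1 had 44.5 TPM, and none of these overlapped its neighbour in the order. ACSL4 at 8.30 TPM, GSR at 6.13 TPM, GCLM at 5.69 TPM and AIFM2 at 4.78 TPM each overlapped its neighbour among these 4. GCLC at 3.04 TPM, the ALOX15 model at 2.64 TPM and GSS at 1.5 TPM were the lowest in banded animals, lay apart from AIFM2 and overlapped their neighbours among themselves.

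In control animals the first 5 genes stood in the same order, with MGST3 at 237 TPM, GPX4 at 199.5 TPM, MGST1 at 66.2 TPM, ACSL4 at 8.00 TPM and GSR at 5.61 TPM. AIFM2 at 4.71 TPM stood above GCLM at 2.81 TPM, and GCLC at 1.92 TPM above GSS at 1.41 TPM and the ALOX15 model at 0.484 TPM. In controls GSR overlapped AIFM2, and GCLC overlapped GSS, while the other neighbours were apart. Over all 8 animals, MGST3 ranked above 98.9% of the genes tested by TPM and GPX4 above 98.3%, while the ALOX15 model ranked above 27.8% and GSS above 26.5%.

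**Figure D3:**
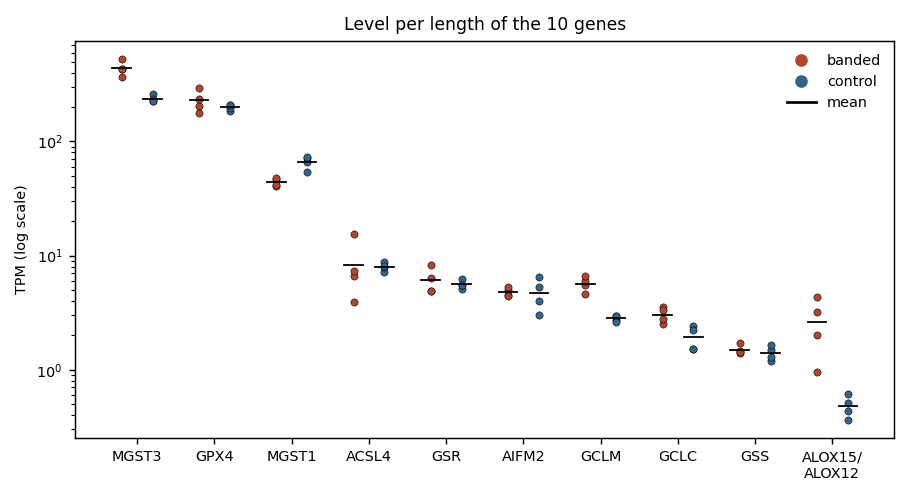
TPM (vertical axis, log scale) of the 10 genes in the order of their control means, with banded animals in red left of control animals in blue and a line at each group mean. MGST3, GPX4 and MGST1 sit well above the other 7 genes in either group. The order depends on model length, and the GPX4 and GSS models reach beyond their RefSeq genes. The ALOX15 and ALOX12 model has the largest fold difference between group means, with values of 0.961 to 4.36 TPM in banded and 0.366 to 0.618 TPM in control animals.

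Ratios of functional partners within an animal do not depend on the scaling between libraries. They were compared for 5 pairs as log2 ratios per length with an exact two-sided permutation test, whose smallest possible p over 70 assignments is 0.0286. None passed after Benjamini-Hochberg adjustment over the 5 pairs, and at this sample size at least 3 of the 5 pairs would have to reach that smallest p for any to pass.

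MGST1 over MGST3 separated the groups completely. The linear ratio was 0.109, 0.0938, 0.0791 and 0.131 in banded 1 to 4, against 0.276, 0.239, 0.280 and 0.324 in control 1 to 4. The log2 ratio was -3.30 ± 0.31 in banded and -1.85 ± 0.18 in control animals (SD, n = 4 each), a difference of -1.46 with an exact permutation p of 0.0286, the smallest possible, and an adjusted p of 0.143. It was lower in 4 of 4 banded animals than in any control, and the difference was -1.58 to -1.34 without any 1 library. The pair was chosen with earlier results of these data known, and its genes had log2 fold changes of opposite sign. The separation and its p are therefore a description.

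The ratios within glutathione synthesis overlapped between the groups. GCLM over GCLC had a log2 ratio of 0.91 ± 0.19 in banded and 0.58 ± 0.35 in control animals, a difference of 0.33 with an exact permutation p of 0.171 and an adjusted p of 0.286. GSS over GCLC had -1.01 ± 0.19 in banded and -0.43 ± 0.49 in control animals, a difference of -0.58 with an exact permutation p of 0.0857 and an adjusted p of 0.214. For the subunits, banded 1 and 3, with log2 ratios of 1.13 and 0.99, lay above every control, and banded 2 and 4, with 0.76 and 0.74, lay inside the control range of 0.17 to 0.95.

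The ratios to GPX4 also overlapped. ACSL4 over GPX4 had a log2 ratio of -4.93 ± 0.96 in banded and -4.64 ± 0.11 in control animals, with an exact permutation p of 0.686 and an adjusted p of 0.743. Its banded values were -4.96, -4.60, -3.95 and -6.23 in animals 1 to 4. Banded 3 lay above all controls and banded 1 and 4 below them, while the controls lay between -4.71 and -4.48. AIFM2 over GPX4 had -5.56 ± 0.25 in banded and -5.47 ± 0.50 in control animals, with an exact permutation p of 0.743 and an adjusted p of 0.743.

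**Figure D4:**
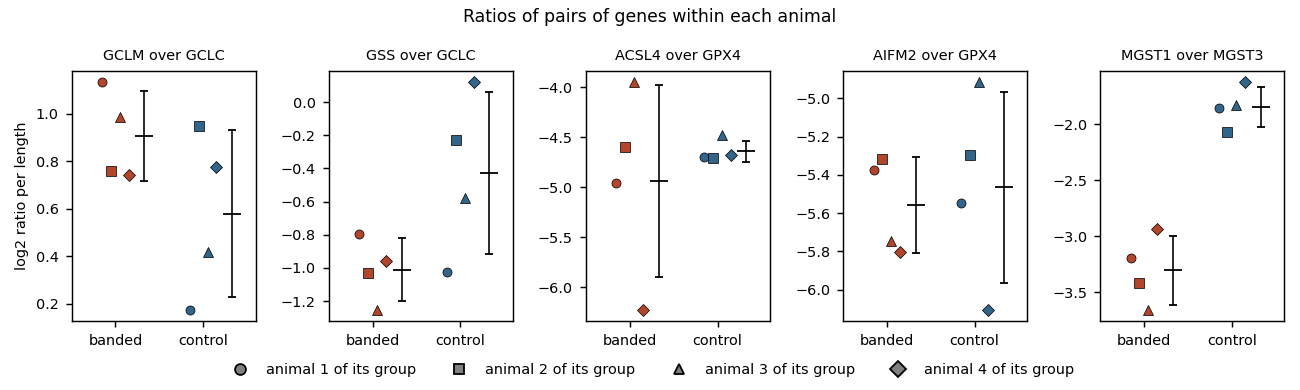
Log2 ratio per length (vertical axes, each on its own scale) for the 5 pairs in banded (red, left) and control animals (blue, right), with the mean and SD beside the points. Only MGST1 over MGST3 has groups that do not overlap, with banded values of -3.66 to -2.94 and control values of -2.07 to -1.63.

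The other genes of these routes were taken from 9 lists, of which 158 genes were tested. Of these, 3 were higher and 4 lower, or 4.43% called, against 6.97% of all genes tested, and their median log2 fold change was 0.06. The lists were short and their calls scattered, with at most 2 genes called in any list.

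Around glutathione itself, 17 genes of supply and breakdown were tested, with 0 higher and 1 lower and a median log2 fold change of 0.27. The lower gene was ABCC1, an exporter of glutathione and its conjugates, with 20.9 ± 2.68 CPM in banded and 30.4 ± 4.40 CPM in control animals (log2 fold change -0.54 ± 0.15, adjusted p 0.0485 by edgeR's quasi-likelihood test). That call was lost without any 1 of banded 1, 2 and 3 or control 2, 3 and 4, with adjusted p-values up to 0.141, and also with median-of-ratios scaling (0.0504) or without robust estimation (0.0516). SLC7A11, the cystine importer, had 1.42, 3.21, 5.94 and 0.695 CPM in banded 1 to 4, against 0.909, 1.77, 1.15 and 0.892 CPM in control 1 to 4, with an adjusted p of 0.212. Banded 2 and 3 lay above every control, banded 4 below every control and banded 1 among them. LAP3, a peptidase that was the most abundant of the list, had 102 ± 27.4 CPM in banded and 83.9 ± 9.10 CPM in control animals, with an adjusted p of 0.389.

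None of the 16 genes of NADPH supply and glutaredoxins was called by edgeR's quasi-likelihood test, DESeq2 or limma-voom, and 0 reached an unadjusted p under 0.05. IDH2, which makes NADPH in mitochondria, was the most abundant with 474 ± 65.1 CPM in banded and 454 ± 38.0 CPM in control animals. Of 19 other glutathione peroxidases and transferases, 0 were called by edgeR's quasi-likelihood test, DESeq2 or limma-voom, and 1 had an unadjusted p under 0.05. GPX3, the secreted peroxidase, had 154 ± 78.8 CPM in banded and 150.5 ± 17.4 CPM in control animals. Of the 12 genes of selenoprotein synthesis, on which GPX4 depends, 0 were called by any of the 3 tools and 1 had an unadjusted p under 0.05. SELENOP, the selenium carrier of plasma, had 428 ± 108 CPM in banded and 497 ± 18.4 CPM in control animals.

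Of 19 genes that activate fatty acids, remodel membrane lipids or make ether lipids, 0 were called by edgeR's quasi-likelihood test. DESeq2 called 1 and limma-voom 3, against 1710 and 1341 of all 13697 genes tested, and 7 of the 19 had an unadjusted p under 0.05. Without banded 3, 2 were called, against 938 of all 13965 genes tested in that fit. Without banded 1 or banded 4, 1 was called, against 797 of 13945 and 962 of 13988. The most abundant was ACSL1, the main long-chain acyl-CoA synthetase of heart, with 134 ± 42.8 CPM in banded and 223 ± 46.6 CPM in control animals and an adjusted p of 0.0738 by edgeR's quasi-likelihood test. DESeq2 called ACSL1 (adjusted p 0.0192), as did the fit without banded 1 (adjusted p 0.0176). Banded 1 was the highest banded animal for ACSL1 (195.8 CPM) and for GPX3 (241.4 CPM). It also had the most adipocyte transcripts, a summed 634.9 CPM over 5 markers. The other banded animals had 124.6 to 195.6 CPM of these and the control animals 182.7 to 239.7 CPM. The part of adipocyte transcripts in the ACSL1 and GPX3 values was not tested.

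Among 10 lipoxygenases and other enzymes of lipid peroxidation, 1 was higher and 0 lower, with a median log2 fold change of 0.33. PTGS1, the constitutive cyclooxygenase, had 32.1 ± 10.7 CPM in banded and 14.0 ± 1.47 CPM in control animals, with groups that did not overlap (log2 fold change 1.2 ± 0.21, adjusted p 0.00728 by edgeR's quasi-likelihood test), and it passed without any 1 library. ALOX5, the leukotriene-forming lipoxygenase of leukocytes, had 8.55 ± 3.21 CPM in banded and 6.68 ± 1.96 CPM in control animals, with an adjusted p of 0.536. SAT1, a polyamine acetyltransferase that was the most abundant of the list, had 81.5 ± 7.14 CPM in banded and 93.9 ± 25.5 CPM in control animals.

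Of 23 genes of coenzyme Q, biopterin and other radical-trapping routes, 0 were higher and 1 lower. COQ8A, an atypical kinase needed for coenzyme Q synthesis, had 79.7 ± 37.7 CPM in banded and 195 ± 12.6 CPM in control animals, with groups that did not overlap (log2 fold change -1.29 ± 0.28, adjusted p 0.0223 by edgeR's quasi-likelihood test). The COQ8A call was lost without any 1 of banded 1 and 2 or the 4 controls, with adjusted p-values up to 0.0678. COQ9, a lipid-binding member of the same pathway and the most abundant, had 255 ± 49.1 CPM in banded and 303 ± 17.8 CPM in control animals, with an adjusted p of 0.364.

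Among 25 regulators of ferroptosis and genes of the NRF2 axis, 1 was higher and 1 lower. DDIT3, a stress-induced transcription factor also called CHOP, had 0.832 ± 0.189 CPM in banded and 3.20 ± 0.768 CPM in control animals (log2 fold change -1.94 ± 0.32, adjusted p 0.00571 by edgeR's quasi-likelihood test) and passed without any 1 library. SLC38A1, a glutamine transporter, had 17.2 ± 7.75 CPM in banded and 8.38 ± 1.53 CPM in control animals (log2 fold change 1.03 ± 0.27, adjusted p 0.0447), and that call was lost without banded 2 or any 1 control, with adjusted p-values up to 0.124, and also with library size alone (0.0752). HSPB1, a small heat shock protein and the most abundant of the list, had 547, 438, 2834 and 627 CPM in banded 1 to 4, against 566, 538.5, 520 and 769 CPM in control 1 to 4, with an adjusted p of 0.422. Banded 3 carried the difference, since the log2 fold change was 0.89 with it and -0.15 without it.

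NRF2 (encoded by NFE2L2) is the transcription factor known to act on GCLC and GCLM. NFE2L2 itself had 50.5 ± 12.1 CPM in banded and 53.4 ± 2.91 CPM in control animals (adjusted p 0.821), and its inhibitor KEAP1 had 52.2 ± 6.58 CPM in banded and 57.0 ± 2.83 CPM in control animals (adjusted p 0.574). The further genes given here were picked after their values were seen, and none of them passed the test. NQO1 had 9.96 ± 1.35 CPM in banded and 10.5 ± 0.773 CPM in control animals, with an adjusted p of 0.812. TXNRD1 had 59.1 ± 10.9 CPM in banded and 51.1 ± 1.61 CPM in control animals, with an adjusted p of 0.397. SRXN1 had 4.48, 6.17, 31.3 and 5.18 CPM in banded 1 to 4, against 3.49, 2.49, 3.63 and 5.19 CPM in control 1 to 4, with an adjusted p of 0.181. Banded 3 stood far above the rest for SRXN1, while GCLM in banded 3 was within 1.24-fold of the other banded animals. OSGIN1, of the same list as SRXN1, had 6.79, 6.09, 5.225 and 3.51 CPM in banded 1 to 4. In control 1 to 4 it had 0.528, 2.03, 2.84 and 4.95 CPM, with an adjusted p of 0.243 by edgeR's quasi-likelihood test. Banded 4 alone lay within the control range for OSGIN1, and the other banded animals lay above it. NRF2 activity was not measured, and its part in the GCLM value was not tested.

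Of 17 genes of iron handling, 1 was higher and 1 lower. DESeq2 called 5 and limma-voom 5, against 1710 and 1341 of all 13697 genes tested. Of the 17, 7 had an unadjusted p under 0.05, and 1 to 4 were called without any 1 library. The 4 were called without banded 3, against 938 of all 13965 genes tested in that fit. CP, ceruloplasmin, a copper ferroxidase, had 1.74, 0.654, 4.30 and 2.19 CPM in banded 1 to 4, against 0.117, 0.232, 0.169 and 0 CPM in control 1 to 4. It was called (adjusted p 0.0112 by edgeR's quasi-likelihood test), but it passed the filter only through the banded animals and was not tested under a filter of 50 counts in 4 libraries. With controls this close to 0, the fitted fold in the plot of pathway lists depends on the prior count and is no measure of size. STEAP3, an endosomal ferrireductase, had 10.7 ± 3.67 CPM in banded and 20.3 ± 2.80 CPM in control animals (log2 fold change -0.92 ± 0.23, adjusted p 0.0365), and that call was lost without banded 2 or 4 or any 1 control, with adjusted p-values up to 0.115. FTL, the ferritin light chain and the most abundant of the list, had 615 ± 131 CPM in banded and 500.0 ± 77.7 CPM in control animals, with an adjusted p of 0.344. HMOX1, which releases iron from haem and is also an NRF2 target, had 14.8, 21.7, 58.5 and 8.93 CPM in banded 1 to 4, against 7.86, 6.41, 6.72 and 9.02 CPM in control 1 to 4. Banded 3 was again the highest, banded 4 was no higher than control 4, and the adjusted p was 0.0979.

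**Figure D5:**
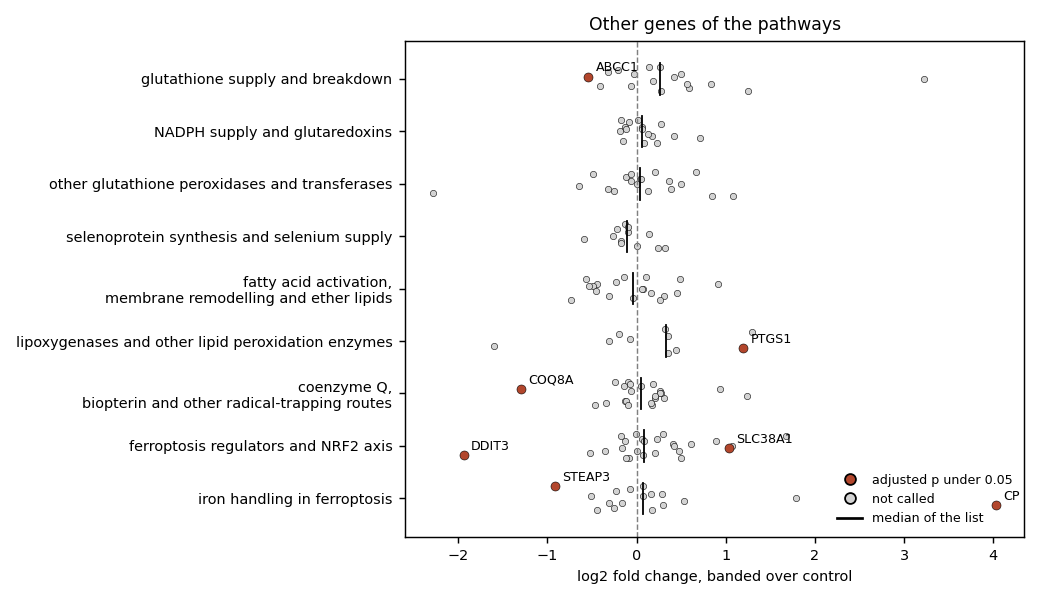
Log2 fold change of banded over control (horizontal axis) for each tested gene of the 9 lists of related pathways (rows), with the list median as a line; red points are called and named. The medians run from -0.11 for selenoprotein synthesis to 0.33 for lipoxygenases and other lipid peroxidation enzymes, and the 7 called genes are spread over 5 of the 9 lists.

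Among the markers of cell types, MYL2, a ventricular myosin light chain, was higher (17460 ± 2543 CPM in banded and 9264 ± 1353 CPM in control animals, adjusted p 0.0113 by edgeR's quasi-likelihood test). PDGFRA of fibroblasts had 42.2 ± 5.38 CPM in banded and 59.4 ± 6.54 CPM in control animals (adjusted p 0.048), and EMCN of endothelium 41.7 ± 5.53 CPM in banded and 62.1 ± 2.96 CPM in control animals (adjusted p 0.0207). Summed fibroblast markers were 4648 to 7570 CPM in banded and 5742 to 8003 CPM in control animals, and summed endothelial markers 854 to 891 CPM in banded and 838 to 980 CPM in control animals. Smooth muscle and pericyte markers summed to 624 to 1868 CPM in banded, with banded 3 at the top, and 715 to 987 CPM in control animals. CNN1 weighed on that sum, with 349.5, 273.4, 1348 and 156.2 CPM in banded 1 to 4, against 61.7 to 115.7 CPM in control animals. The median log2 fold change of the 7 markers was -0.44, and 2 of the 7 were positive. None of the tested markers of smooth muscle, neutrophils, mast cells, platelets, erythroid cells, T and NK cells, B and plasma cells, adipocytes, Schwann cells or epithelium was called by edgeR's quasi-likelihood test. Of these lists, smooth muscle had 4 markers at an unadjusted p under 0.05 and Schwann cells 1, DESeq2 called 3 and 1 of them, and limma-voom 1 and 0. The PDGFRA call was lost without banded 1 or 4 or any 1 control, with adjusted p-values up to 0.151, and also with upper-quartile scaling (0.0537), library size alone (0.0704), no filter (0.0524) or no robust estimation (0.0515). The EMCN call was lost without banded 1 or control 1, 2 or 3, with adjusted p-values up to 0.0747. How far cell makeup entered the values of GCLM, MGST3 and MGST1 was not tested.

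In the authors' deposited table of control against banded, turned here to banded over control, GCLM had a log2 fold change of 0.99 (adjusted p 3.65e-07), MGST3 one of 0.85 (adjusted p 3.74e-06) and ALOX15 one of 2.75 (adjusted p 2.47e-21). In the authors' deposited table GCLC had 0.66 with an adjusted p of 0.0524, MGST1 had -0.50 with an adjusted p of 0.131 and ACSL4 had -0.40 with an adjusted p of 0.236. The mean normalised signals of the authors' deposited table were within a median of 0.0733% of those computed from 7 libraries without banded 3 over 10296 genes, against 2.7% for all 8 libraries and 2.93% to 4.07% without any other library. The ACSL4 value of the authors' deposited table thus stands beside -0.39 without banded 3, and not beside 0.05 with all 8 animals. The 3 genes called here and those past 0.05 among the 10 in the authors' deposited table were the same 3. As the signals of that table match 7 of the same 8 libraries, this is no independent check. The share of all genes past 0.05 in that table is not given here.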

How the data were processed

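RNA of frozen right ventricular free wall, 1 library per animal, was analysed for 4 banded and 4 control pigs, and replicate numbers follow the order of deposit and pair no samples. The labels give no sequencing batch. Per the file headers, the authors made counts of read pairs per gene with featureCounts 1.6.2 (mapping quality at least 10, strand setting 2) on Ensembl release 106 of Sscrofa11.1. The command did not ask for reads that map to several places or overlap several models, so near-identical copies may be undercounted. Trimmomatic, HISAT2, Subread and DESeq2 are named per the submitters' processing notes, without versions. The deposited comparison table gives, per the file headers, a mean normalised signal, a log2 fold change and its error, a Wald score, a p-value with its adjusted form, and the percent identity to the human gene. Its model and filters are not stated.

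From the counts, genes were kept by filterByExpr of edgeR 4.0.16 in R 4.3.3 (minimum count 10, minimum total 15), which left 13697, and 11414 of 31908 models were at 0 in all libraries. Counts were scaled by TMM and tested two-sided with edgeR's quasi-likelihood F test with robust estimation and Benjamini-Hochberg adjustment over all genes tested, at 0.05. The standard error is the size of the log2 fold change over the square root of F, and 95% intervals are not adjusted. TPM used the counts and exon lengths of the table. By counting error alone, a gene at 0 counts may have up to 0.0878 to 0.0967 CPM, the value of 3 counts in a library.

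The test was tested on simulated data. The members, lists and pairs were chosen with earlier results of these data known. Besides the 10 genes, the rule for naming took from each pathway list up to 2 called genes per direction and the gene of highest TPM, and from each cell type list up to 2 called markers; genes outside it were picked after their values were seen. Of 184 list entries, 170 matched a gene and 158 were tested. Alternatives were DESeq2 1.42.0, limma-voom (limma 3.58.1) with quality weights, scaling by median of ratios, by the upper quartile or by library size, no filter, at least 50 counts in 4 libraries, no robust estimation, no genes of the mitochondrial genome, and each library left out. No sequences are printed, and no genome sequence was used here.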

Additional observations from a re-analysis of the deposited data

Results flagged for a closer look

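Of 30 groups of 4 animals examined (the CPM of each gene and each log2 ratio), 2 held an animal far from the other 3, where chance gives about 1 in 20, or 1.5 here. For GPX4 CPM in controls, the gap of control 4 (323 CPM) to the next animal was 0.913 of the group's range, past Dixon's 95% limit for 4 animals. As TPM, control 4 had 206 for GPX4, inside the control range of 186 to 209, so that gap was present as CPM and not as TPM. For the log2 ratio of ACSL4 over GPX4 in controls, the gap was 0.875 of the range, with control 3 at -4.48 and the other controls between -4.71 and -4.68.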

How the results depend on the processing

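GCLM, MGST3 and the ALOX15 model kept their direction and their call under all 9 alternatives and without any 1 library, and 3 of the 10 genes were called without any 1 library and 3 to 4 under the other settings. GCLC was called with DESeq2 (0.69) and MGST1 with library size alone (-0.64). ACSL4 turned negative with limma-voom (-0.13) and library size alone (-0.040), and ran from -0.39 to 0.26 without 1 library. Library size alone also turned AIFM2 (-0.029), GPX3 (-0.094) and IDH2 (-0.045). Under it the median over all genes was -0.09 on the log2 scale, against 0.02 with TMM, and it gave 303 higher and 508 lower calls (37.4% higher, against 49.8%). Without 1 library GPX3 ran from -0.27 to 0.25, HSPB1 from -0.15 (without banded 3) to 1.16, the log2 ratio of ACSL4 over GPX4 from -0.62 to 0.14 (without banded 4) and that of AIFM2 over GPX4 from -0.31 to 0.090. Over all genes 954 were called, 1710 with DESeq2 and 399 to 962 without 1 library, with 399, 415 and 409 without control 1, 2 and 3. Over the 9 pathway lists 7 were called, 14 with DESeq2, 15 with limma-voom and 3 to 10 without 1 library. The causes were not tested. No paired analysis was possible because the labels give the groups no shared replicate numbers. With 4 animals per group, the 95% intervals of GPX4, GSS, GSR, ACSL4 and AIFM2 allow differences in either direction. Their upper limits are 1.42-fold to 1.72-fold of the control level in banded animals, and their lower limits 0.624-fold (ACSL4) to 0.861-fold (GPX4).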
